A study of Mus musculus with 111 samples.

Results

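Gene expression in the lungs of 8 mice 14 days after bleomycin was set against that in the lungs of 7 mice 14 days after saline. These 15 arrays, set beside 96 others of 12 further groups in the series, were chosen by the treatment and day in their titles, and every gene with a probeset of its own was used. All mice were male C57BL6/J, 7 to 9 weeks old when obtained. The bleomycin-treated mice had received bleomycin once at 2 U/kg in 50 µl by the intratracheal route, and the saline-treated mice 50 µl of saline by the same route, both under isoflurane. The left and right lungs of 1 mouse were homogenised whole for each array, so every value is a level in the RNA of all lung cells together. Mice killed 1, 2, 7, 21, 28 and 35 days after dosing made up the rest of the series, and those of days 7 and 21 are used below as the neighbours of day 14. The model is limited to young males, a single dose and lungs in which levels of cardiac and adipose genes varied between mice, as the next paragraphs show.

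Bleomycin is a chemotherapeutic that breaks DNA, and in the lung it injures the alveolar epithelium and the capillaries beneath it. The injury draws in monocytes, which become macrophages, and is followed by proliferation of epithelial cells and fibroblasts and by deposition of collagen, fibronectin, tenascin and elastin. TGF-β, activated locally by integrins, is the best known driver of the matrix genes, and in mice the scar formed after a single dose partly resolves with time.

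The 15 arrays were alike in scale, with medians from 8.383 to 8.485 on the log2 scale over the 15707 genes, and the median correlation of an array with the others of its group lay between 0.9887 and 0.9933. The 3′ minus 5′ difference of the Actb probes, which widens as RNA degrades, was 0.70 to 0.83 in bleomycin-treated mice and 0.80 to 1.00 in saline-treated mice. The same difference lay the other way for the transferrin receptor probes, at 1.87 to 2.32 in bleomycin-treated mice and 1.62 to 2.27 in saline-treated mice, and for those of pyruvate carboxylase, at 2.72 to 3.14 in bleomycin-treated mice and 2.55 to 2.94 in saline-treated mice, and the part of RNA quality in the results was not tested. Lung tissue was plain in both groups, since the mean log2 level of 12 alveolar type II genes was 11.81 to 12.00 in bleomycin-treated mice and 11.92 to 12.05 in saline-treated mice. Cardiac muscle and adipose genes varied much more. The mean log2 level of 18 cardiac muscle genes was 7.63 at the lowest, 9.57 at the median and 10.36 at the highest in bleomycin-treated mice, against 8.46, 10.87 and 11.29 in saline-treated mice. For 12 adipose genes these values were 7.07, 7.59 and 8.46 in bleomycin-treated mice and 8.03, 9.01 and 9.73 in saline-treated mice. Both ranges overlapped between the groups, and saline-treated mice of the other days spread over a comparable span, from 8.11 to 11.55 for the cardiac and from 7.14 to 10.76 for the adipose genes. Whether carried-over tissue or an effect of bleomycin set these levels was not tested. Results that move with the cardiac and adipose means are given below also from a fit with both means as covariates.

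Of 15707 genes, 3435 (21.9%) rose and 3092 (19.7%) fell after bleomycin at an adjusted p under 0.05, whatever the size of the change. With a fold above 2 as well, 379 genes (2.41%) were higher and 118 (0.751%) lower, 57 of the higher and 11 of the lower by more than 4-fold. The median log2 fold change over all genes was -0.01, so that the shift of a gene list can be read against a value close to 0. The 2 groups did not overlap for 2622 genes (16.7%), whichever was higher, and among the 497 genes called higher or lower this held for 417, namely 353 of the higher and 64 of the lower. Fold changes are relative to the whole RNA of the lung, and in bulk tissue fewer cells of a type and less RNA per cell cannot be told apart.

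**Figure D1:**
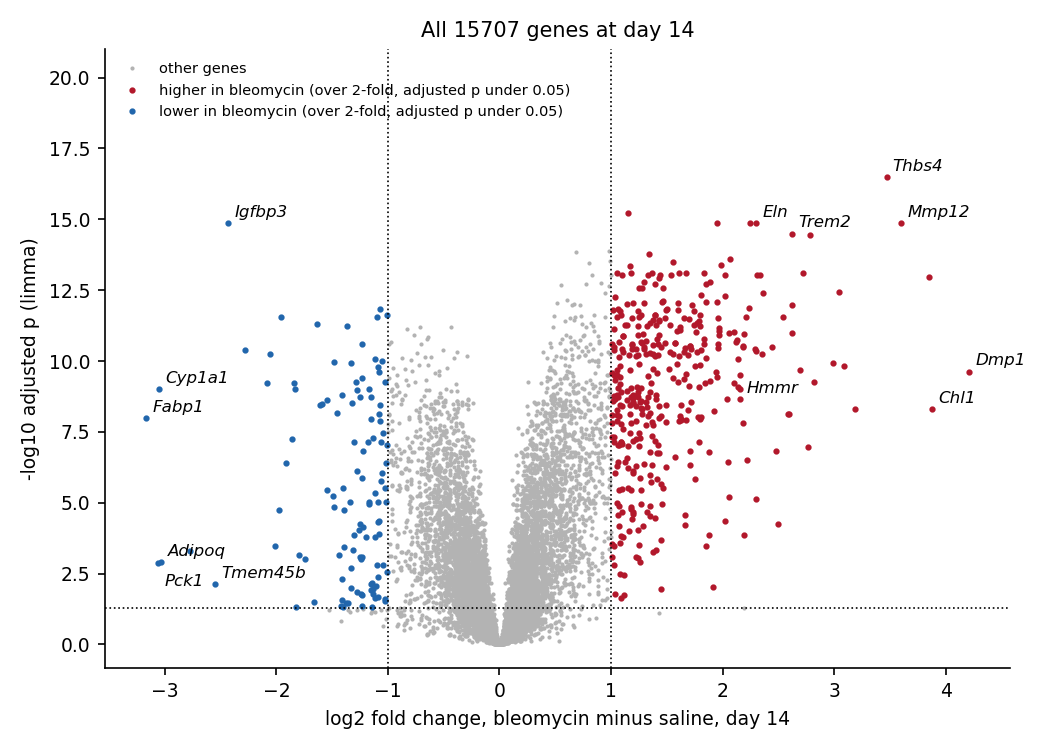
Log2 fold change of bleomycin-treated over saline-treated mice at day 14 (horizontal axis) and -log10 of the adjusted p of limma (vertical axis), 1 point a gene, with dotted lines at the thresholds. Coloured points are the 379 genes higher and the 118 lower at an adjusted p under 0.05 and a fold above 2, and the higher genes reach a log2 fold change of 4.21 (Dmp1) and the lower ones -3.17 (Fabp1).

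The genes with the largest increases had various known roles. Dmp1, an acidic phosphoprotein of bone and dentin matrix, had log2 levels of 7.26 at the lowest, 9.33 at the median and 10.74 at the highest in bleomycin-treated mice, against 4.24, 4.71 and 5.71 in saline-treated mice. The groups did not overlap, and the increase was 18.5-fold (log2 fold change 4.21, SE 0.54, adjusted p = 2.38e-10, with every SE on the log2 scale). The other probesets of Dmp1 gave smaller log2 fold changes of 1.59 and 2.6. Chl1, a neural adhesion molecule of the L1 family, had 8.82, 10.56 and 11.04 in bleomycin-treated mice and 5.35, 6.46 and 7.49 in saline-treated mice, a log2 fold change of 3.88 (SE 0.54, adjusted p = 4.87e-09). Its other probesets gave 2.19 and 2.56. Chodl, a membrane C-type lectin, had 7.22, 9.42 and 9.84 in bleomycin-treated mice and 4.58, 4.94 and 5.28 in saline-treated mice (14.4-fold, SE 0.39, adjusted p = 1.12e-13). For Mmp12, the elastase of macrophages, the levels were 11.22, 11.89 and 12.56 in bleomycin-treated mice and 8.02, 8.28 and 8.50 in saline-treated mice, a 12.1-fold increase (SE 0.32, adjusted p = 1.38e-15). Thbs4, a thrombospondin of tendon and injured tissue, had 9.0, 9.69 and 10.98 in bleomycin-treated mice and 5.95, 6.37 and 6.80 in saline-treated mice (11.1-fold, SE 0.29, adjusted p = 3.19e-17). In all of these genes every bleomycin-treated mouse was above every saline-treated mouse. The same held for the next 5 by size: Ereg, a ligand of the EGF receptor (9.10-fold), Cemip, a protein that cleaves hyaluronan (8.50-fold, although its other probesets gave log2 fold changes of 0.04 to 0.41), Psrc1, a microtubule-binding protein of the spindle (8.25-fold), Sprr1a, a cornified envelope precursor of stressed epithelium (7.92-fold), and the matricellular protein tenascin C (Tnc, 7.07-fold). The other probesets of Psrc1 gave log2 fold changes of 1.27 and 2.54.

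**Figure D2:**
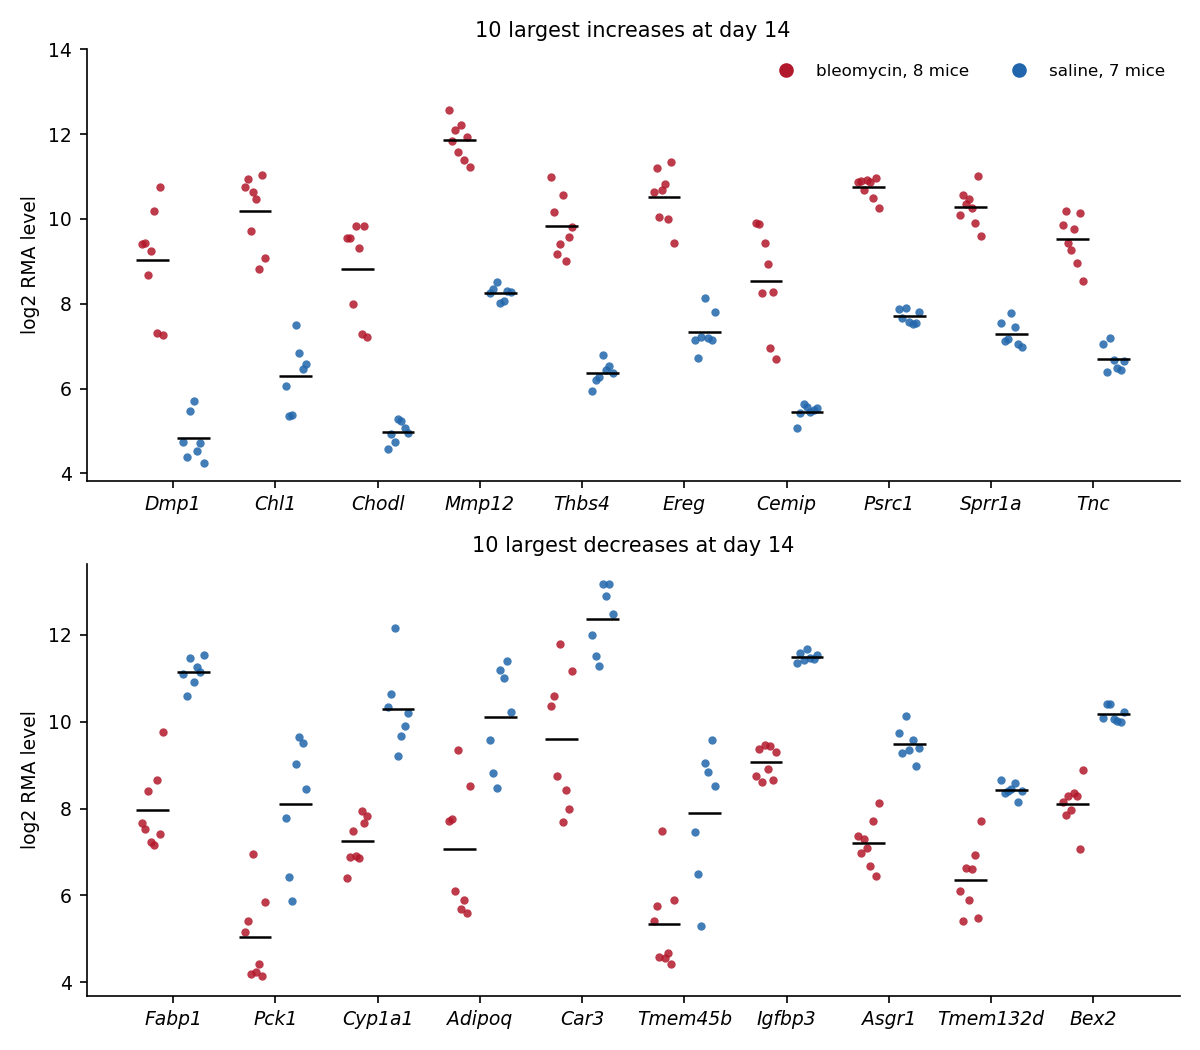
Log2 levels at day 14 of the genes that rose most (upper panel, 10 genes) and fell most (lower panel, 10 genes), with bleomycin-treated mice (8 points) left of saline-treated mice (7 points) for each gene and a bar at the mean. For Dmp1 the bleomycin-treated mice lie between 7.26 and 10.74 and the saline-treated mice between 4.24 and 5.71, whereas for Tmem45b the groups overlap, at 4.42 to 7.48 in bleomycin-treated and 5.29 to 9.59 in saline-treated mice.

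The largest decreases included genes that kept and genes that lost their change once the cardiac and adipose means entered the fit. Fabp1, a fatty acid-binding protein of liver that mouse alveolar macrophages also express, had log2 levels of 7.15, 7.60 and 9.76 (lowest, median and highest) in bleomycin-treated mice and 10.59, 11.14 and 11.53 in saline-treated mice, a 9.01-fold decrease (log2 fold change -3.17, SE 0.46, adjusted p = 1.05e-08) that was -3.22 with the cardiac and adipose means as covariates. Cyp1a1, the xenobiotic-metabolising P450 induced through the aryl hydrocarbon receptor, had 6.40, 7.19 and 7.95 in bleomycin-treated mice and 9.21, 10.19 and 12.16 in saline-treated mice (log2 fold change -3.05, SE 0.41, adjusted p = 1.01e-09), and -3.16 with the covariates. Igfbp3, a secreted carrier of insulin-like growth factors, had 8.60, 9.10 and 9.47 in bleomycin-treated mice and 11.36, 11.46 and 11.67 in saline-treated mice (log2 fold change -2.43, SE 0.22, adjusted p = 1.38e-15), and -2.36 with the covariates. In these 3 genes the groups were apart. Asgr1, a subunit of the asialoglycoprotein receptor (-2.28), Tmem132d (-2.08) and Bex2 (-2.06) were likewise separated in every mouse and kept -2.15, -2.23 and -2.05 with the covariates. Pck1, the phosphoenolpyruvate carboxykinase of adipose glyceroneogenesis, overlapped between the groups (4.14, 4.78 and 6.95 in bleomycin-treated mice against 5.88, 8.46 and 9.65 in saline-treated mice), and its log2 fold change was -3.06 in the fit without and -0.30 in the fit with the covariates (-0.80 without them in its other probeset). The adipocyte hormone Adipoq (-3.03 without and -0.39 with them), the adipose and muscle carbonic anhydrase Car3 (-2.77 and -0.64) and Tmem45b (-2.55 and 0.15) no longer passed both thresholds with the covariates. Pck1, Adipoq and Car3 are themselves members of the adipose mean used as a covariate, so that a smaller change in that fit is partly built in, whereas Tmem45b is not a member.

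Of the 18 cardiac muscle genes 8 fell and the other 10 did not pass the test, the median log2 fold change being -1.06, and of the 12 adipose genes 8 fell and 1 rose, with a median of -1.20. With the covariates, which these same genes make up, 1 cardiac gene fell and 3 rose and the median was 0.01. The gene that still fell was Myh7, the slow β-myosin heavy chain, with log2 levels of 8.83, 9.04 and 9.39 in bleomycin-treated mice and 9.75, 10.03 and 10.61 in saline-treated mice (log2 fold change -1.06, SE 0.16, adjusted p = 7.01e-08, and -1.17 with the covariates). Its groups did not overlap, unlike those of Nppa, the atrial natriuretic peptide, at 7.10, 7.55 and 10.40 in bleomycin-treated mice and 7.15, 10.30 and 11.65 in saline-treated mice (log2 fold change -1.82, SE 0.77, adjusted p = 0.0472, and 0.18 with the covariates). Of the 118 lower genes 68 were called again with the covariates, and 85 when bleomycin-treated mouse 4 and saline-treated mice 4 and 5, which held the highest cardiac or adipose means of their group, were left out. Of the 379 higher genes the numbers were 348 and 367.

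**Figure D3:**
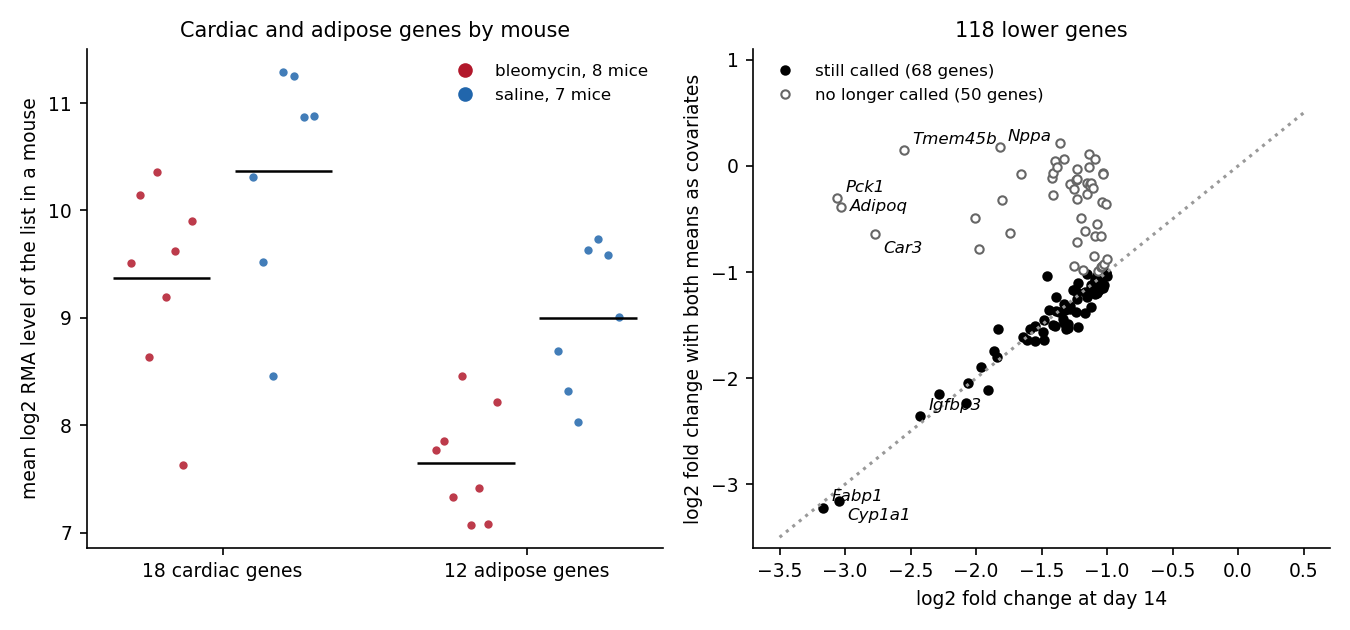
Left, the mean log2 level of 18 cardiac and 12 adipose genes in each bleomycin-treated and saline-treated mouse, with a bar at the group mean, the cardiac mean spanning 7.63 to 10.36 in bleomycin-treated and 8.46 to 11.29 in saline-treated mice. Right, the log2 fold change of the 118 lower genes without (horizontal axis) and with (vertical axis) both means as covariates, where Fabp1, Cyp1a1 and Igfbp3 lie near the dotted line of equal values and Pck1 (-3.06 and -0.30) and Adipoq (-3.03 and -0.39) far above it.

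Most genes of cell division rose. Of 47 measured genes of the mitotic spindle and cytokinesis, 45 rose and 1 fell, 36 of them by more than 2-fold, and the median log2 fold change was 1.38. Hmmr, the hyaluronan-mediated motility receptor that also binds the spindle, had log2 levels of 8.88, 9.58 and 10.17 in bleomycin-treated mice and 6.91, 7.29 and 8.14 in saline-treated mice (4.46-fold, SE 0.29, adjusted p = 2.15e-09). Its other probesets gave smaller log2 fold changes of 0.53 and 1.05. Cep55, which recruits the abscission machinery, had 10.76, 11.34 and 11.69 in bleomycin-treated mice and 8.80, 9.08 and 9.85 in saline-treated mice (4.28-fold, SE 0.27, adjusted p = 5.91e-10). Both genes separated the groups completely, as did Cdk1, the kinase of mitotic entry (10.10, 10.80 and 11.21 in bleomycin-treated mice against 8.55, 8.68 and 9.33 in saline-treated mice, 3.91-fold), and the kinetochore protein Cenpf (3.79-fold). The gene that fell was Pttg1, the securin, at 9.97 to 10.35 in bleomycin-treated mice and 10.58 to 10.87 in saline-treated mice (log2 fold change -0.60, SE 0.08, adjusted p = 4.63e-09). Of 37 genes of DNA replication and nucleotide synthesis 33 rose and the other 4 did not pass, with a smaller median of 0.65, led by the checkpoint mediator Clspn (3.55-fold) and the maintenance methylation factor Uhrf1 (2.97-fold). The other probeset of Clspn gave a log2 fold change of 0.7. Target genes of p53 moved too, 9 of 14 rising and 1 falling with a median of 0.65. Eda2r, a receptor of the TNF receptor family, had 9.65, 10.12 and 10.38 in bleomycin-treated mice and 7.81, 8.19 and 8.47 in saline-treated mice (3.89-fold, SE 0.24, adjusted p = 3.60e-11), and the cyclin-dependent kinase inhibitor Cdkn1a had 10.53, 10.85 and 10.97 in bleomycin-treated mice against 8.71, 8.92 and 9.07 in saline-treated mice (3.84-fold, SE 0.25, adjusted p = 2.46e-10). Inhibitor and cell cycle genes were higher in the same lungs, and Ccng1 (2.51-fold) and the p53 ubiquitin ligase Mdm2 (1.59-fold) rose as well.

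The promoters of the 4 genes with the largest increases within this mitotic list are shown because the list moved together and such genes commonly carry 2 short elements, the cell cycle genes homology region (CHR, TTTGAA, or TTCAAA on the opposite strand) and the CCAAT box (CCAAT, or ATTGG on the opposite strand). The windows are from RefSeq on GRCm38.p6, run from 250 bases before to 50 after an annotated start, are written 5′ to 3′ on the strand of the gene, and have matches to either element in capitals. They lie at chr11:40733388-40733687, minus strand (Hmmr), chr19:38054734-38055033, plus strand (Cep55, the first of its 2 annotated windows), chr10:69352863-69353162, minus strand (Cdk1), and chr1:189688037-189688336, minus strand (Cenpf).
Hmmr: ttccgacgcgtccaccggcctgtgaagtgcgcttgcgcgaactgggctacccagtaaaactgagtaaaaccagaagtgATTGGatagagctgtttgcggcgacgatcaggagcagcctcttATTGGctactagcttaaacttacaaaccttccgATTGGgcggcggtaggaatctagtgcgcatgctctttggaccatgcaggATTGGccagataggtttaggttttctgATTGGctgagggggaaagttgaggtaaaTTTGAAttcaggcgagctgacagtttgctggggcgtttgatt
Cep55: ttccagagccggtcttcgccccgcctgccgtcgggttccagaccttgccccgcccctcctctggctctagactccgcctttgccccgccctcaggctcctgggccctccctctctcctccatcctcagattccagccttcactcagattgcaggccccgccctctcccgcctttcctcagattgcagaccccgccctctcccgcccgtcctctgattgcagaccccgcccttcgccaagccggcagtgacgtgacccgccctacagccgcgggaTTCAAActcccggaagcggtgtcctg
Cdk1: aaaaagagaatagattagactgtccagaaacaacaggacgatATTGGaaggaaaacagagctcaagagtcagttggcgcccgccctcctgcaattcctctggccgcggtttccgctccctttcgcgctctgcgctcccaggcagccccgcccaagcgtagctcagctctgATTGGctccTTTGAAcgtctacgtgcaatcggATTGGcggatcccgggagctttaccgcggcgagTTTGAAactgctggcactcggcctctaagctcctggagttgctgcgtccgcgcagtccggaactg
Cenpf: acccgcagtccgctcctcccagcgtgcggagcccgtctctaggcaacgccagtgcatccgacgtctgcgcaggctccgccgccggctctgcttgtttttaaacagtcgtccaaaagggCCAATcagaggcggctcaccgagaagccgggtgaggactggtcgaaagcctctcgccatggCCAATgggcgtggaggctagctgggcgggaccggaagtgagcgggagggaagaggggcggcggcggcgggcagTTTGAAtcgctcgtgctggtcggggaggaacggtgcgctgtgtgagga
The Hmmr window held 1 CHR and 5 CCAAT matches, that of Cep55 1 and 0, that of Cdk1 2 and 3, and that of Cenpf 1 and 2. Of the 47 mitotic genes 36 matched the table, with 39 windows, of which 28 (71.8%) held a CHR match, 28 (71.8%) a CCAAT match and 22 (56.4%) both. Over all 32851 windows of the table the shares were 17.9%, 37.4% and 6.95%. The 36 windows of 30 replication genes held a CHR match in 6 (16.7%), a CCAAT match in 17 (47.2%) and both in 2 (5.56%). Matches describe the letters of these windows, and no binding was measured here.

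Matrix genes rose as a group, but unevenly between classes. Of the 11 fibrillar collagen chains 9 rose and the other 2 did not pass, with a median log2 fold change of 1.11. The largest increase was in a minor chain, Col24a1, with log2 levels of 6.65, 7.69 and 7.99 in bleomycin-treated mice and 4.47, 4.73 and 5.03 in saline-treated mice (6.86-fold, SE 0.26, adjusted p = 3.63e-15), followed by Col5a3 (3.25-fold, although its other probeset gave a log2 fold change of -0.05). The major chains rose less. Col1a1 had 13.22, 13.52 and 13.77 in bleomycin-treated mice and 12.41, 12.55 and 12.74 in saline-treated mice (1.93-fold, SE 0.13, adjusted p = 1.06e-09), while Col1a2 (2.16-fold) and Col3a1 (2.18-fold) were close to it, with the groups apart in each. Among 20 basement membrane and other collagen chains 13 rose and 2 fell, and Col17a1, a hemidesmosomal collagen of basal epithelium, fell 2.22-fold, at 5.61 to 6.79 in bleomycin-treated mice and 7.02 to 7.63 in saline-treated mice (adjusted p = 1.79e-09). Of 17 genes that fold, trim and crosslink collagen 9 rose and 1 fell, among them the prolyl hydroxylase subunit P4ha3 (3.61-fold) and lysyl oxidase Lox (2.05-fold).

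Of 21 matricellular and adhesive glycoproteins 13 rose and 2 fell, 11 of them by more than 2-fold, with a median of 1.25. Besides Dmp1, Thbs4 and Tnc these included Thbs2 (4.96-fold), the fibronectin gene Fn1, at 10.36, 11.16 and 11.37 in bleomycin-treated mice and 8.76, 9.04 and 9.35 in saline-treated mice (3.86-fold, SE 0.18, adjusted p = 1.38e-15), and Cthrc1, a secreted protein of activated fibroblasts (3.02-fold). Postn, the periostin gene, did not pass the test, at 12.86 to 13.13 in bleomycin-treated mice and 12.83 to 12.98 in saline-treated mice (log2 fold change 0.10, SE 0.05, adjusted p = 0.0702). Of 14 elastic fibre genes 8 rose and 1 fell, and the elastin gene Eln itself had 10.14, 10.88 and 11.46 in bleomycin-treated mice against 8.11, 8.37 and 8.96 in saline-treated mice (4.93-fold, SE 0.21, adjusted p = 1.38e-15). Fbn2, a fibrillin otherwise most abundant in development, rose 3.89-fold, and the proteoglycan Fmod, which binds collagen fibrils, 3.40-fold. Among 18 matrix metalloproteases and their inhibitors 13 rose and 2 fell. Timp1, an inhibitor, had 11.46, 12.52 and 12.73 in bleomycin-treated mice and 9.42, 9.69 and 10.16 in saline-treated mice (6.02-fold, SE 0.37, adjusted p = 7.28e-09), and the stromelysin Mmp10 rose 6.45-fold. Proteases of the family did not all share this direction, since the gelatinase Mmp9 fell 2.62-fold, with at most 8.48 in bleomycin-treated mice and at least 8.50 in saline-treated mice (SE 0.33, adjusted p = 0.000376).

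Signalling genes upstream of the matrix were mixed. In the list of TGF-β, activin and BMP signalling 17 of 37 rose and 9 fell, with a median log2 fold change of 0.07, not far from that of all genes. The 2 largest increases were in secreted antagonists, Fst, which binds activin, at 10.03, 11.22 and 11.75 in bleomycin-treated mice and 8.24, 8.72 and 9.13 in saline-treated mice (5.11-fold, SE 0.29, adjusted p = 5.47e-11), and the BMP antagonist Grem1 (4.17-fold), whose groups overlapped in 2 bleomycin-treated mice. The activin subunit Inhba (2.58-fold) and Itgb6, the integrin chain that activates latent TGF-β, also rose (log2 fold change 1.26), whereas the ligand Bmp6 fell 1.98-fold. Of 35 growth factors, receptors and carriers 12 rose and 11 fell, with Igf1 at 11.53, 12.14 and 12.40 in bleomycin-treated mice and 10.20, 10.49 and 11.04 in saline-treated mice (2.80-fold, SE 0.21, adjusted p = 3.42e-09) and Pdgfc 2.74-fold higher. Of 27 Wnt ligands, inhibitors and targets 8 rose (29.6%) and 3 fell (11.1%), against 21.9% and 19.7% of all genes, with a median of 0.08. The 2 largest increases among them were in secreted inhibitors, Frzb (5.44-fold) and Sfrp1 (5.07-fold). Contractile genes of smooth muscle and myofibroblasts did not follow the collagens. Of 14 such genes 1 fell and 13 did not pass, with a median of -0.13, and Acta2, the smooth muscle actin used to mark myofibroblasts, had 6.36, 7.57 and 8.35 in bleomycin-treated mice and 7.01, 7.68 and 8.35 in saline-treated mice (log2 fold change -0.20, SE 0.30, adjusted p = 0.628). By staining, the paper found α-smooth muscle actin protein close to areas of collagen I after bleomycin. The Acta2 probeset read below the mean of its list, which was 10.21 to 10.67 in bleomycin-treated and 10.23 to 10.91 in saline-treated mice. The member that fell was Synpo2, an actin-bundling protein (log2 fold change -0.81, adjusted p = 0.00166), which was not called with the cardiac and adipose covariates (-0.33).

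Epithelial lists differed in direction. Of 11 alveolar type I genes 4 rose and 3 fell (median log2 fold change -0.01), and of 9 basal and squamous genes 1 rose and 8 did not pass (median 0.08). Of 12 alveolar type II genes 1 rose and 7 fell with a median of -0.10, and the surfactant lipid transporter Abca3 had log2 levels of 8.07, 8.40 and 8.55 in bleomycin-treated mice and 8.75, 8.85 and 8.91 in saline-treated mice (log2 fold change -0.44, SE 0.08, adjusted p = 5.23e-06). Of 10 club cell genes 8 fell and 1 rose (median -0.32), led by Chad (1.88-fold lower, log2 fold change -0.91, and -0.34 and no longer called with the cardiac and adipose covariates), and of 18 ciliated cell genes 4 fell, a share (22.2%) near that of all genes, and 1 rose (median -0.27, and -0.03 with the covariates). Of 9 genes of the transitional and stressed epithelium that appears during alveolar repair 7 rose and 2 did not pass, with a median of 0.46. After Sprr1a the largest change was in the tight junction protein Cldn4, at 6.71, 7.37 and 7.61 in bleomycin-treated mice and 5.21, 5.39 and 5.91 in saline-treated mice (3.46-fold, SE 0.24, adjusted p = 8.57e-10). Mesothelial genes, which mark the lining of the pleura, fell in 7 of 9 cases (median -0.48), with Muc16 1.82-fold lower.

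Macrophage genes differed between lists. All 14 measured genes of monocyte-derived and lipid-handling macrophages rose, with a median log2 fold change of 1.49. Trem2, a lipid-sensing receptor, had log2 levels of 9.71, 10.39 and 10.61 in bleomycin-treated mice and 7.58, 7.69 and 7.87 in saline-treated mice (6.14-fold, SE 0.24, adjusted p = 3.22e-15), while its other probeset had a log2 fold change of 0.17 that did not pass. Ms4a7 (4.53-fold) and the glycoprotein Gpnmb (3.89-fold) were also higher in every bleomycin-treated mouse than in any saline-treated mouse. Of 12 genes of resident alveolar macrophages 3 rose (25.0%) and 4 fell (33.3%), against 21.9% and 19.7% of all genes, with a median of -0.35. The 3 that rose were Itgax (log2 fold change 1.02), Plet1 (0.81, with -0.04 and 0.33 in its other probesets) and Mrc1 (0.59). Next to Fabp1, the keratin Krt79 fell 2.94-fold (7.32, 7.86 and 9.24 in bleomycin-treated mice and 9.42, 9.51 and 9.79 in saline-treated mice, SE 0.28, adjusted p = 3.61e-06) and the lipid droplet protein Cidec 3.93-fold. Cidec is an adipocyte gene too, and its log2 fold change was -1.98 without and -0.78 with the cardiac and adipose covariates. It is itself a member of the adipose mean used as a covariate, so that a smaller change in that fit is partly built in. Of 12 genes shared with osteoclasts 10 rose and 1 fell, among them Dcstamp, needed for macrophage fusion, at 7.50, 8.46 and 9.27 in bleomycin-treated mice and 5.90, 6.38 and 6.57 in saline-treated mice (4.36-fold, SE 0.25, adjusted p = 2.06e-11). The gene of this list that fell was Mmp9, given above.

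Inflammatory mediators were higher in part. Of 29 chemokines 13 rose and 3 fell, with a median log2 fold change of 0.44. Ccl12, a ligand of CCR2 that attracts monocytes, had log2 levels of 9.83, 10.57 and 10.89 in bleomycin-treated mice and 7.49, 8.10 and 8.40 in saline-treated mice (5.58-fold, SE 0.39, adjusted p = 1.49e-07), and the interferon-induced Cxcl9 was 4.56-fold higher. Ppbp, a platelet chemokine, fell 2.18-fold. Of 24 cytokines 10 rose and 1 fell, including Il6 (3.76-fold, 6.33 to 8.59 in bleomycin-treated mice and 5.23 to 6.70 in saline-treated mice, adjusted p = 0.00913) and Lif (3.28-fold, with a log2 fold change of 0.33 in its other probeset). Complement genes rose in 7 of 11 cases and fell in 1, with a median of 0.65, led by the anaphylatoxin receptor C3ar1 (4.91-fold) and followed by the first component chain C1qa (3.35-fold). The neutrophil chemoattractants Cxcl2 and Cxcl3 were not higher than in these controls. Cxcl2 had 7.59, 8.56 and 9.10 in bleomycin-treated mice and 8.21, 8.88 and 9.01 in saline-treated mice (log2 fold change -0.36, SE 0.46, adjusted p = 0.562), and Cxcl3 had 6.69, 7.29 and 7.96 in bleomycin-treated mice against 7.50, 8.30 and 8.70 in saline-treated mice (log2 fold change -0.86, SE 0.37, adjusted p = 0.0512). The saline-treated mice of day 14 were themselves high for both genes. Saline-treated mice of the other days had medians of 6.38 for Cxcl2 and 5.21 for Cxcl3, and against all saline-treated mice of the series the log2 fold changes of day 14 were 1.52 and 1.58.

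Lymphocyte genes moved in different directions by type. Of 15 T cell genes 7 rose and 8 did not pass, led by the inhibitory receptor Ctla4, at log2 levels of 7.92, 8.70 and 9.69 in bleomycin-treated mice and 6.84, 7.23 and 7.50 in saline-treated mice (3.10-fold, SE 0.24, adjusted p = 1.13e-08). Il2ra, a chain of the interleukin-2 receptor (2.04-fold), and Foxp3, the factor that defines regulatory T cells (1.70-fold), rose too, with every bleomycin-treated mouse above every saline-treated mouse in each. The mean of the T cell list was highest in bleomycin-treated mice 2, 4 and 7, at 9.34, 9.25 and 8.96, against 8.39 to 8.67 in the other bleomycin-treated mice and 8.14 to 8.52 in saline-treated mice. The same 3 mice had the highest B cell means of the bleomycin group, at 9.27, 9.34 and 8.94, although the B cell list as a whole fell in 4 of 8 genes, the others not passing (median -0.43). Thymocyte genes, measured as a sign of carried-over thymus, had means of 6.33 to 6.68 in bleomycin-treated mice and 6.37 to 6.72 in saline-treated mice. Bleomycin-treated mice 2, 4 and 7 were again the highest of their group, at 6.59, 6.68 and 6.50, against 6.33 to 6.45 in the others. Their means of natural killer and cytotoxic genes were also the highest of the group, at 8.54, 8.42 and 8.56. The part of carried-over tissue in these lymphocyte values was not tested. Natural killer and cytotoxic genes fell in 8 of 14 cases, the others not passing, with granzyme A (Gzma) at 10.16, 10.78 and 11.38 in bleomycin-treated mice and 11.50, 11.76 and 12.03 in saline-treated mice (1.90-fold lower, SE 0.17, adjusted p = 3.49e-06). Of 12 plasma cell and IgA genes 3 rose, a share (25.0%) near that of all genes (21.9%), and 9 did not pass. Igha, the IgA constant region, had 9.66, 11.59 and 12.34 in bleomycin-treated mice and 8.80, 9.34 and 9.97 in saline-treated mice (3.69-fold, SE 0.42, adjusted p = 0.000134), with 1 bleomycin-treated mouse inside the saline range, and Jchain, which joins IgA dimers, was 3.61-fold higher.

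Structural and rhythmic genes of the resting lung were lower. Of 23 endothelial genes 14 fell and 2 rose, with a median log2 fold change of -0.30, from Ednrb, an endothelin receptor of alveolar capillaries (log2 fold change -0.78, SE 0.18, adjusted p = 0.000252), to the venular chemokine receptor Ackr1, which rose to 8.02, 9.13 and 9.68 in bleomycin-treated mice, against 7.01, 7.32 and 7.45 in saline-treated mice (3.26-fold, SE 0.27, adjusted p = 1.48e-07). Genes of resident lung fibroblasts fell in 10 of 15 cases and rose in 1 (median -0.38), among them the scavenger receptor Scara5 (log2 fold change -0.88, and -0.31 and no longer called with the covariates, its other probeset not passing) and Wnt2 (1.63-fold lower). Circadian clock genes fell in 10 of 14 cases and did not pass in the other 4, with a median of -0.46. The repressor Nr1d1 had log2 levels of 10.53, 10.80 and 11.08 in bleomycin-treated mice and 11.50, 11.66 and 11.87 in saline-treated mice (log2 fold change -0.87, SE 0.15, adjusted p = 9.27e-07), and the output factor Dbp fell by 0.75 on the log2 scale. The hour at which each mouse was killed is not given in the sources used here, and its part in these values was not tested. Mast cell genes fell in 2 of 7 cases (28.6%), a share not far from the 19.7% of all genes that fell. With the cardiac and adipose covariates 1 of 7 fell.

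How day 14 differed from its neighbours was tested on the difference between the responses, that is bleomycin minus saline at day 14 less the same at day 7 or day 21, with different mice at each day. Of the 379 genes higher at day 14, 303 were also called at day 7 and 138 at day 21, and of the 118 lower genes 47 and 24. Over all genes 448 were called higher and 75 lower at day 7, and 179 higher and 51 lower at day 21. At an adjusted p under 0.05 the response was more positive than at day 7 for 45 genes (0.286%) and less positive for 60 (0.382%), and more positive than at day 21 for 583 genes (3.71%) and less positive for 458 (2.92%). With a difference above 2-fold as well these were 11 (0.0700%) and 6 (0.0382%) against day 7 and 42 (0.267%) and 13 (0.0828%) against day 21. The 379 higher genes were picked by the day 14 response. That response also enters the difference, so an excess over day 21 is partly built in. Among these genes the response exceeded that of day 21 in 109. Genes of cell division were among them, with a median log2 fold change of the mitotic list of 1.45 at day 7, 1.38 at day 14 and 0.73 at day 21, and a response above that of day 21 in 20 of its 47 genes. The matricellular list had medians of 0.63, 1.25 and 0.44 at days 7, 14 and 21, with 3 of 21 genes above day 7 and 7 above day 21, and the fibrillar collagens 0.96, 1.11 and 0.52, with 6 of 11 genes above day 21. Genes of monocyte-derived macrophages had medians of 1.59, 1.49 and 1.05. The contractile list had medians of -0.17, -0.13 and -0.71, and the response of 7 of its 14 genes was less negative at day 14 than at day 21. Chemokines had medians of 1.02 at day 7, 0.44 at day 14 and 0.50 at day 21, and 1 of 29 responses was lower than at day 7.

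**Figure D4:**
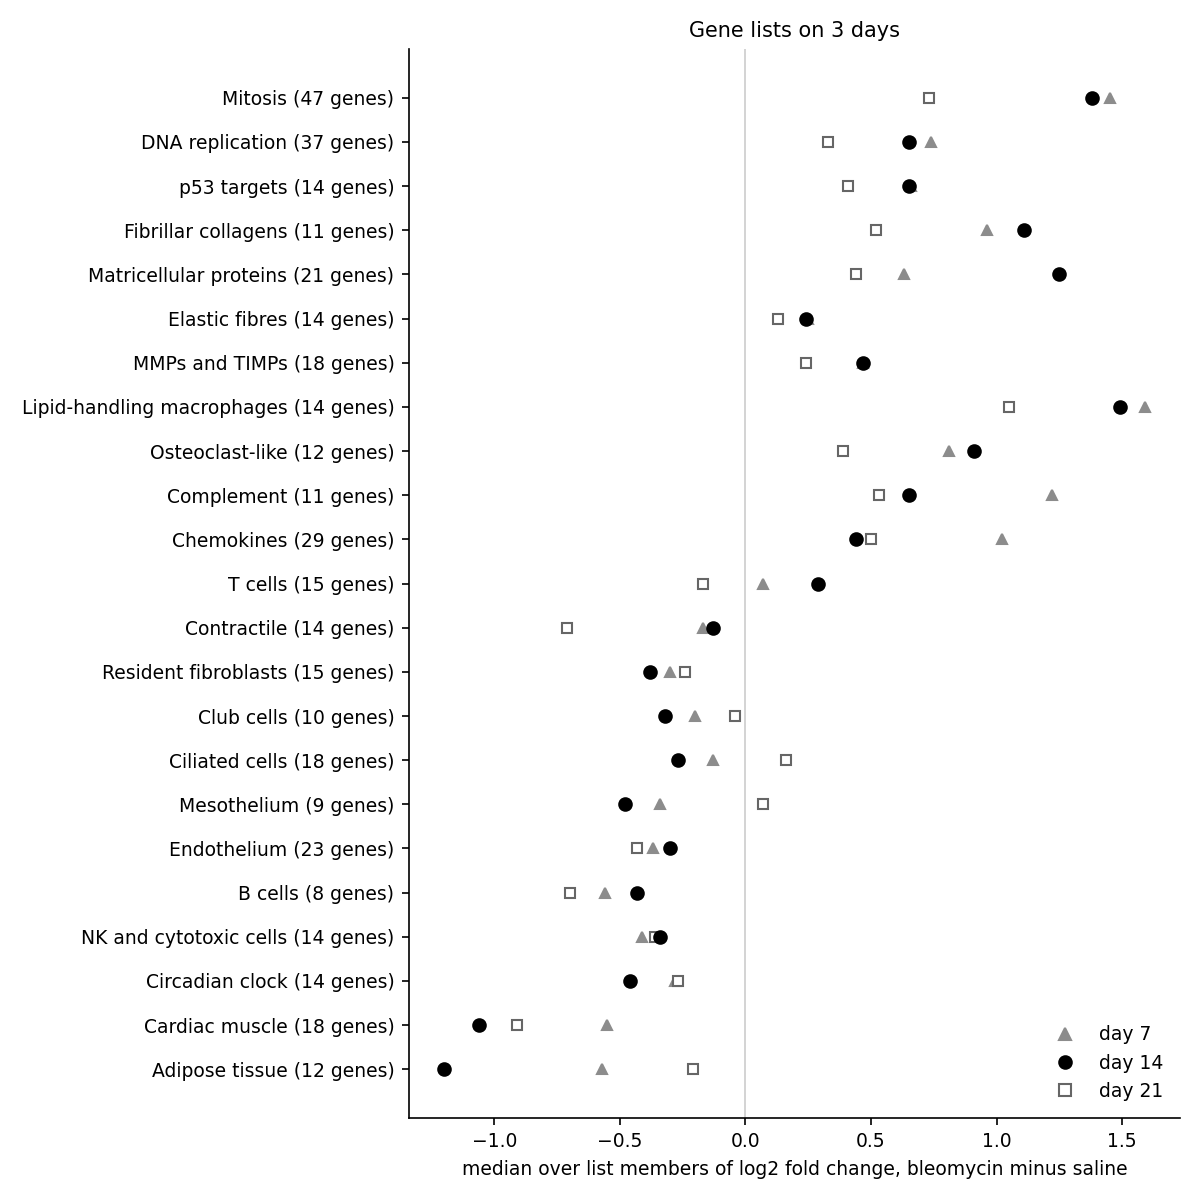
Median log2 fold change of bleomycin-treated over saline-treated mice for gene lists at days 7, 14 and 21. At day 14 the medians are 1.38 for mitotic genes, 1.25 for matricellular genes and 1.49 for monocyte-derived macrophage genes, and the matricellular median is higher at day 14 than at day 7 (0.63) or day 21 (0.44).

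Several genes stood above day 7 by themselves, matrix genes among them. C1qtnf3, a secreted C1q and TNF related protein, had a log2 fold change of -0.77 at day 7, 1.29 at day 14 and 0.83 at day 21, and the response of day 14 exceeded that of day 7 by 2.07 (SE 0.39, adjusted p = 0.000976). Fbn2 had 0.33, 1.96 and 0.78 at days 7, 14 and 21, a difference of 1.63 from day 7 (SE 0.30, adjusted p = 0.000976) and of 1.18 from day 21 (adjusted p = 0.00973). The bone sialoprotein Ibsp, at 0.01, 1.57 and 1.08, differed from day 7 by 1.56 (SE 0.35, adjusted p = 0.0143), while its other probeset had a log2 fold change of 0.06 at day 14. Log2 levels of Ibsp at day 14 were low, at 3.32 to 5.83 in bleomycin-treated mice and 3.24 to 3.69 in saline-treated mice. Those of C1qtnf3 at day 7 were low too, at 3.86 to 5.01 in bleomycin-treated mice and 4.59 to 6.14 in saline-treated mice. The response exceeded that of day 7 also for the retinoic acid-binding protein Crabp1, by 1.32, and for Fam124b, by 1.48, and Fam124b was not itself changed at day 14 (log2 fold change 0.34, adjusted p = 0.203). For Fam124b most of the difference lay in the controls, with means of 7.66 at day 7 and 8.14 at day 14 in bleomycin-treated mice and 8.80 and 7.80 in saline-treated mice, and Crabp1 likewise had 7.21 and 7.80 in bleomycin-treated mice and 7.42 and 6.69 in saline-treated mice. Fmod and Cthrc1 also exceeded day 7, by 1.32 and 0.97. The 5 genes furthest below their response of day 7 were Cxcl3 (difference -2.27), the mucin-branching enzyme Gcnt3 (-1.66, its other probeset having a log2 fold change of -0.12 at day 14), the carboxypeptidase Cpa4 (-1.36), the plasminogen activator inhibitor Serpinb2 (-1.22) and the cornified envelope gene Crct1 (-1.21), and for Cxcl3 the level of the day 14 controls enters this difference. Over both groups of day 14, Cpa4 read only 4.21 to 5.17, Serpinb2 3.68 to 5.38 and Gcnt3 4.87 to 6.69, where the lowest value of the series was 2.746. Cpa4 had a log2 fold change of 0.20 at day 14. Without the 30% dimmest genes the number of genes below day 7 past both thresholds was 0.

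Against day 21 the leading genes were Thbs4, with log2 fold changes of 2.41 at day 7, 3.47 at day 14 and 1.41 at day 21 (difference from day 21 2.06, SE 0.40, adjusted p = 0.000553), Glod5, with 2.13, 2.62 and 0.60 (2.02, SE 0.39, adjusted p = 0.00064), Cemip, with 2.53, 3.09 and 1.12 (1.97, SE 0.54, adjusted p = 0.0155), and Chodl, with 4.06, 3.85 and 2.02 (1.83, SE 0.55, adjusted p = 0.0273). In these genes the response was large at both day 7 and day 14 and smaller at day 21. The immediate early factor Egr3 differed by 1.76 without passing the test at day 14 itself (adjusted p = 0.0544), with means of 10.29 at day 14 and 9.67 at day 21 in bleomycin-treated mice and 9.56 and 10.70 in saline-treated mice. Fn1 fell short of its day 14 response by 1.35 at day 21 (SE 0.25, adjusted p = 0.000298) and Col1a1 by 0.60 (SE 0.18, adjusted p = 0.0257), whereas for Col3a1 the difference was 0.12 (SE 0.26, adjusted p = 0.855). Col3a1 was lower at day 21 in both groups, with means at days 14 and 21 of 12.77 and 12.15 in bleomycin-treated mice and 11.65 and 11.14 in saline-treated mice. Those of Col1a1 were 13.51 and 12.72 in bleomycin-treated mice and 12.56 and 12.37 in saline-treated mice. In the other direction, Fabp1 had log2 fold changes of -2.64, -3.17 and -1.13 at days 7, 14 and 21 (difference from day 21 -2.05, SE 0.64, adjusted p = 0.0358), with saline-treated mice of day 21 as low as 4.93, and Cyp1a1 -2.73, -3.05 and -1.10 (-1.95, SE 0.56, adjusted p = 0.0229). Cxcl3 (-2.24), Cxcl2 (-1.95) and the fibrinogen chain Fgg (-1.62) completed the 5 largest differences of that sign. The difference of Fgg lay in the controls, since its means at days 14 and 21 were 7.52 and 7.47 in bleomycin-treated mice and 7.88 and 6.21 in saline-treated mice.

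**Figure D5:**
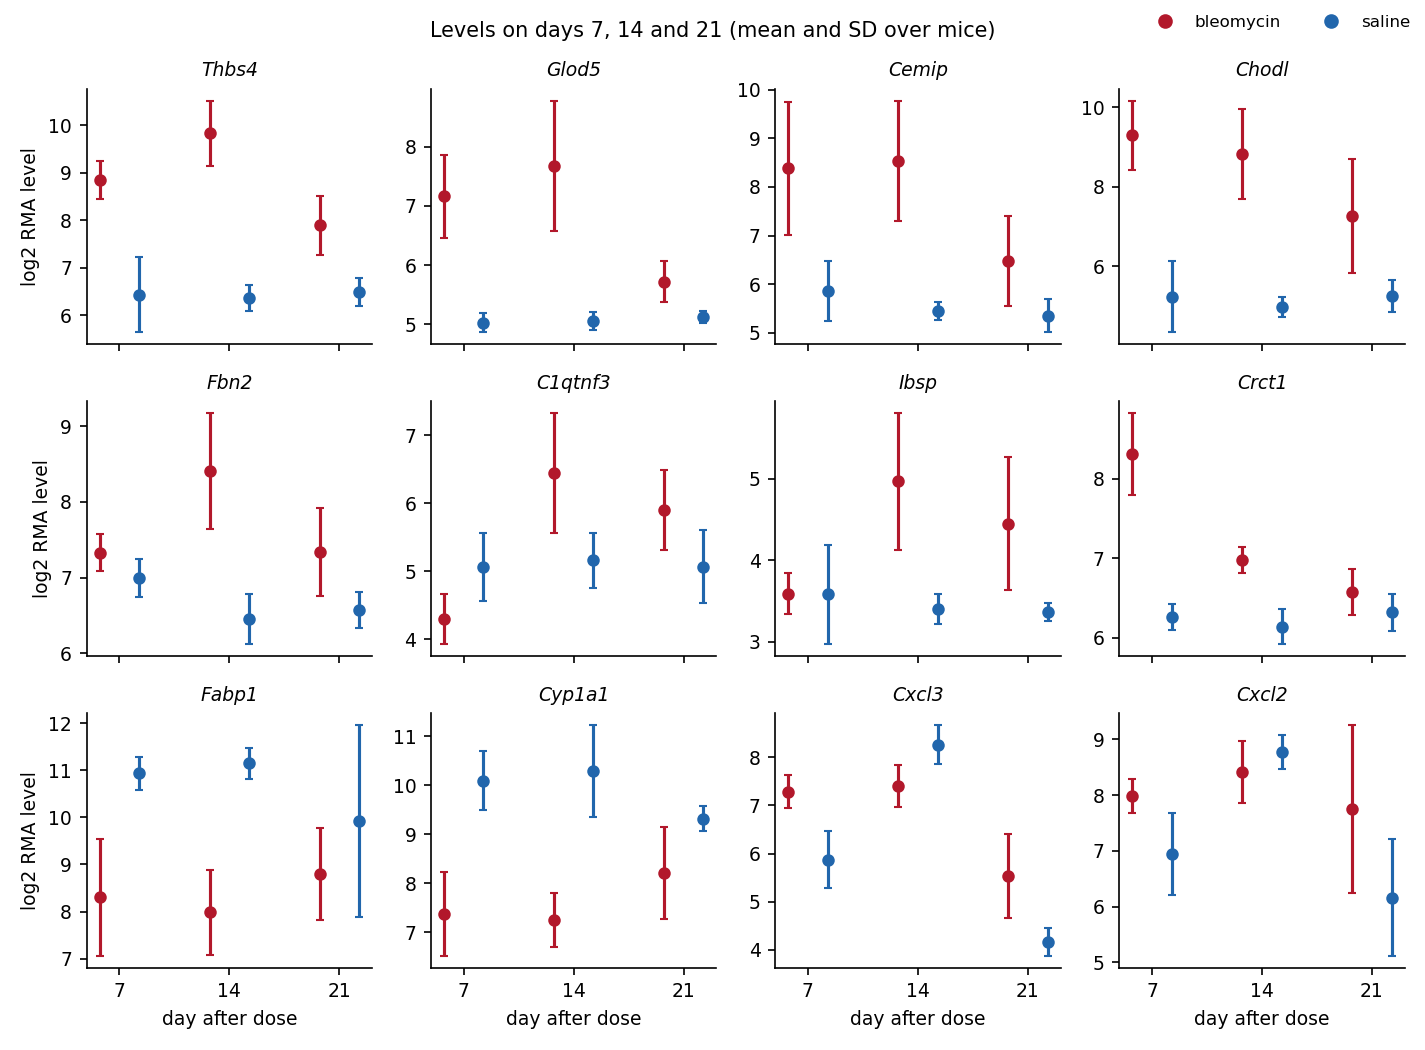
Log2 levels of 12 genes on days 7, 14 and 21, as the mean and SD over the bleomycin-treated (left of each day) and the saline-treated mice (right). The gap between the groups for Thbs4 is widest at day 14 (log2 fold change 3.47) and narrowest at day 21 (1.41), and the saline-treated mice of day 14 stand high for Cxcl2 (8.21 to 9.01) and Cxcl3 (7.50 to 8.70).

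The bleomycin-treated mice did not all respond to the same degree. Over the 379 higher genes the median excess over the saline mean was 0.97 on the log2 scale in bleomycin-treated mouse 8 and 1.13 in mouse 6, against 1.35 to 1.69 in the other 6. Mouse 8 had the lowest level of the bleomycin group for 239 of these genes and mouse 6 for 78. The lower genes showed the same order, with medians of -0.72 in mouse 8, -0.99 in mouse 6 and -1.12 to -1.72 in the others. Mouse 8 also had the lowest level of Dmp1, Chodl, Mmp12 and Tnc and the highest level of Fabp1 (9.76) and Krt79 (9.24) in its group. Its array had the lowest median correlation with its group (0.9887), and its 3′ minus 5′ difference for Actb was 0.79, against 0.70 to 0.83 in the other bleomycin-treated mice. The median SD over the higher genes was 0.357 in bleomycin-treated mice and 0.206 in saline-treated mice, while over all genes it was 0.131 and 0.132.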

How the data were processed

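RNA of whole lungs was amplified, labelled and hybridised to Affymetrix mouse arrays. The authors remapped the probes, dropped those without a unique and current mapping, normalised by RMA and deposited log2 values, and per their methods removed 1 saline array of day 14 after a principal component analysis. The genome build was not given in the sources used here. Of 32688 probesets, 314 with several genes and 4503 with none were left out, and for each of 15707 genes the most variable probeset across the series was taken. The 14 groups of all arrays entered a single fit in R 4.3.3 with limma 3.58.1 (lmFit, contrasts.fit, eBayes) and tested on simulated data. P-values were adjusted by Benjamini and Hochberg over all genes, and genes past an adjusted p of 0.05 and 2-fold were called. SE are those of log2 fold changes. The number of mice limits the precision. The 55 gene lists, with 821 measured members, and the genes compared were chosen with earlier results of these data known. Named genes are the 10 largest changes in each direction in which no bleomycin-treated mouse crossed the mean of the saline-treated mice, up to 4 called members a list in each direction, and the 5 largest differences from days 7 and 21 in each direction. Acta2, Col1a1, Col1a2, Col3a1, Cthrc1, Fn1, Mdm2, Myh7, Postn and the genes of the last paragraph of the closing section that are in no list were added after their values were seen. Alternatives were 14 other settings of probeset choice, normalisation, samples, filter, weights, block and covariates, and leaving out each of the 15 arrays. Some genes are not reported here.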

Additional observations from a re-analysis of the deposited data

Results flagged for a closer look

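Over 234 tests of a gene in a group, the highest or lowest mouse of a group stood apart in 12 from the nearest other mouse by more than Dixon's 95% critical value for the group's size, and since chance gives this in about 1 in 20 groups, their number is about that of chance. In bleomycin-treated mice these were mouse 8 for Krt79 (highest, 9.24, next 8.14) and Lif (lowest, 9.10, next 9.69), and mouse 4 for Nppa (highest, 10.40, next 8.65), the mouse with the highest cardiac mean of its group. In saline-treated mice they were mouse 3 for Cdk1 (9.33, next 8.84), Col3a1 (12.06, next 11.67), Igf1 (11.04, next 10.55) and Adamts4 (8.03, next 7.69), and mouse 4 for Cldn4 (5.91, next 5.50), Pdgfc (9.26, next 8.81) and Has2 (7.21, next 6.60), all highest. Saline-treated mouse 1 was lowest for Cemip (5.06, next 5.43) and Il2ra (6.92, next 7.13). In 11 of these 12 genes the groups remained separated with that mouse included, the exception being Nppa.

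The response of day 14 exceeded that of day 7, on the log2 scale and by the test of the difference itself, for C1qtnf3 (2.07), Fbn2 (1.63), Ibsp (1.56), Fam124b (1.48) and Crabp1 (1.32), and was below it for Cxcl3 (-2.27), Gcnt3 (-1.66), Cpa4 (-1.36), Serpinb2 (-1.22) and Crct1 (-1.21). It exceeded that of day 21 for Thbs4 (2.06), Glod5 (2.02), Cemip (1.97), Chodl (1.83) and Egr3 (1.76), and was below it for Cxcl3 (-2.24), Fabp1 (-2.05), Cxcl2 (-1.95), Cyp1a1 (-1.95) and Fgg (-1.62). For Cxcl2, Cxcl3 and Fgg the high levels of the day 14 saline-treated mice stand beside these values, for Fam124b, Crabp1 and Egr3 their low levels, and for Fabp1 the wide spread of the day 21 saline-treated mice.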

How the results depend on the processing

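Under the other settings with 1 value a gene, genes called higher (379 above) numbered 260 to 421 and genes called lower (118 above) 86 to 139, and over all single-gene probesets 516 and 141. With each mouse left out in turn they numbered 366 to 407 and 92 to 159, genes that rose at any fold 3242 to 3516, and genes that fell 2829 to 3149. Differences between days rested on fewer genes and moved more. Responses above those of day 7 (11 genes) numbered 4 without the 30% dimmest genes, 6 without the mice of highest cardiac or adipose mean, and 8 to 14 with each mouse left out. Responses below those of day 7 (6 genes) numbered 0 without the dimmest genes, 14 with array weights, 12 with the replicate block, and 4 to 9 with each mouse left out. Responses above those of day 21 (42 genes) numbered 27 without the dimmest genes and 31 to 69 with each mouse left out, 69 without bleomycin-treated mouse 8. Responses below those of day 21 (13 genes) numbered 8 without the mice of highest cardiac or adipose mean and 7 to 22 with each mouse left out, 8 without bleomycin-treated mouse 1, 7 without mouse 2 and 22 without mouse 8. The causes were not tested, other than that a filter leaves fewer genes. The direction turned for Cxcl2 (1.52) and Cxcl3 (1.58) with all saline-treated mice as controls, and for Nppa (0.18) and Tmem45b (0.15) with the cardiac and adipose covariates. The call of Nppa was lost (-1.52 to -1.88) with any mouse left out other than bleomycin-treated mice 2 and 4 and saline-treated mice 2 and 3. Cxcl3 passed the test with the covariates (-1.11), the replicate block (-0.94) and array weights (-0.89), and without bleomycin-treated mouse 2, 5 or 8 or saline-treated mouse 2 (-0.91 to -0.99), whereas Cemip (0.04) and Ibsp (0.06) did not pass with the probeset of highest mean. Mice of both groups share replicate numbers, but only numbers 3 and 4 deviated together (correlations 0.354 and 0.276, against -0.199 to -0.00326 in the other 5), and the numbers were not taken as pairs. With the replicate block 407 genes were higher and 139 lower.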

Other observations

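Other lists held a few large changes. Of 12 neutrophil genes 4 rose (33.3%) and 2 fell (16.7%), against 21.9% and 19.7% of all genes. The 4 that rose were Clec4d (log2 fold change 1.22), Cd177 (0.90), Mmp8 (0.88) and Il1r2 (0.84). The 2 that fell were the calgranulins S100a8 and S100a9, with S100a9 at log2 levels of 11.13, 11.49 and 11.76 in bleomycin-treated mice and 12.06, 12.86 and 13.79 in saline-treated mice (2.81-fold lower, SE 0.28, adjusted p = 5.60e-06) and no overlap between the groups. Of 10 genes of serine, proline and branched-chain amino acid metabolism 6 rose and 1 fell, from Bcat1, a branched-chain aminotransferase (4.93-fold higher, adjusted p = 7.14e-06, although its other probesets gave log2 fold changes of 0.14 and 0.31), to the proline oxidase Prodh (1.53-fold lower, adjusted p = 4.91e-08). Of 12 cholesterol synthesis genes 2 rose and 5 fell, and lanosterol synthase Lss had 9.04, 9.17 and 9.63 in bleomycin-treated mice and 9.92, 10.03 and 10.19 in saline-treated mice (1.72-fold lower, SE 0.10, adjusted p = 2.26e-10, with a log2 fold change of -0.16 that did not pass in its other probeset). Of 9 goblet cell genes the anion exchanger Slc26a4 alone rose (3.17-fold, adjusted p = 5.98e-05), and the other 8 did not pass the test. Of 9 aryl hydrocarbon receptor genes 1 rose (11.1%) and 2 fell (22.2%), against 21.9% and 19.7% of all genes. Besides Cyp1a1 the aldehyde dehydrogenase Aldh3a1 was the gene that fell (1.92-fold, adjusted p = 8.35e-05).

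Genes in no list, chosen after their values were seen, were also among the larger increases and separated the groups in every mouse. The aggrecanase Adamts4 had log2 levels of 9.0, 10.56 and 11.23 in bleomycin-treated mice and 7.46, 7.64 and 8.03 in saline-treated mice (6.81-fold, SE 0.44, adjusted p = 1.08e-07). The hyaluronan synthase Has2 had 7.46, 9.37 and 10.46 in bleomycin-treated mice and 6.15, 6.31 and 7.21 in saline-treated mice (6.06-fold, SE 0.37, adjusted p = 7.18e-09), in the same lungs in which the hyaluronan-cleaving Cemip was higher. The pattern recognition protein Ptx3 (6.13-fold), the acute phase protein Saa3 (5.66-fold), the laminin chain Lama1 (3.93-fold) and the inhibitory T cell receptor Pdcd1 (3.52-fold) were higher as well.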
